A study of Mus musculus with 12 samples.

Results

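In the mouse brain, 3 endothelial mutants were set, as a pool, against wild type, and the genes that moved the same way in each mutant were followed. All 12 libraries of the series entered: 9 mutant libraries and 3 wild-type (WT) libraries. Each mutant group counted with equal weight, so the pooled log2 fold change of a gene is the mean of its 3 changes against WT, and a gene is called here only when that pooled change passed the test and the change had the same sign in each mutant. Of the 21638 genes deposited, 12577 averaged 10 counts or more per library and were tested.

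The cells came from the brain cortex of adult mice, selected by FACS for CD31 without CD41 or CD45 on the surface, a gate that keeps endothelium and removes platelets and leukocytes. Hdac2 ECKO mice were Hdac2lox/lox:Cdh5CreERT2, in which the histone deacetylase gene Hdac2 is to be deleted in endothelium. The libraries with the label Ezh2 ECKO came from Ezh2lox/lox:Cdh5CreERT2 mice, in which the Polycomb methyltransferase gene Ezh2 is to be deleted. The beta-catenin GOF (gain of function) mice were Ctnnb1lox/lox:Cdh5CreERT2, described as constitutively active for beta-catenin. Cdh5CreERT2 is a tamoxifen-dependent Cre recombinase driven from the promoter of the endothelial cadherin gene. The mutants received 5 doses of tamoxifen at 75 mg/kg, and brains were taken after 2 months. Libraries were made with a kit for few cells (SMART-Seq v4 PLUS), which amplifies cDNA before sequencing. The labels do not say whether WT mice carried Cre or lox alleles or received tamoxifen. All 3 mutant groups share Cre and tamoxifen, so in the pooled comparison any effect of these and an effect common to the mutations cannot be told apart. The titles number the libraries 1 to 3 within a group without saying that each came from a separate mouse, so p-values measure the spread between these libraries, which may be in part technical. Any processing batch cannot be told apart from the groups either, because the labels name none.

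Brain endothelium forms the blood-brain barrier through tight junctions and selective transporters. It also answers to interferons: receptor signalling through STAT proteins and interferon regulatory factors switches on antiviral genes, GTPases that attack intracellular pathogens, the MHC antigen-presentation genes and negative regulators such as Socs1. Immediate early genes, among them the AP-1 factors, are switched on within minutes of stimuli that include the handling of cells during isolation.

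The library totals ranged from 24781070 to 36109975 counts, and 13922 to 17091 genes were above 0 per library. On the first principal component of log2 CPM (counts per 1000000 counts, after TMM scaling, with a prior count of 2), which held 29.3% of the variance, Hdac2 ECKO 1 and 3 and labelled Ezh2 ECKO 1 and 3 stood between 47.7 and 84.3, while the other 8 libraries stood between −66.5 and 9.3. Of the endothelial identity genes all 17 were tested, and Pecam1 was at 313 ± 79.2 CPM in WT (SD, n = 3) and 259 ± 49.2 CPM in the mutants (SD, n = 9). Pericyte and smooth muscle markers summed to 73.4 to 138 CPM in WT, 156 to 371 in Hdac2 ECKO, 67.7 to 89.5 in the labelled Ezh2 ECKO libraries and 139 to 462 in beta-catenin GOF.

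The targeted genes did not separate the mutants from WT. Hdac2 stood at 163, 122 and 104 CPM in WT 1, 2 and 3, at 82.2, 95.0 and 112 CPM in Hdac2 ECKO, at 114, 140 and 108 CPM in the labelled Ezh2 ECKO libraries and at 88.6, 92.4 and 108 CPM in beta-catenin GOF. Its level in Hdac2 ECKO overlapped that of WT and of the other mutants. Ezh2 was at 8.88, 2.69 and 8.69 CPM in WT and at 9.85, 5.19 and 11.7 CPM in the labelled Ezh2 ECKO libraries, so it was not lower where the label names its deletion. Ctnnb1 was at 546, 608 and 809 CPM in WT and 696, 576 and 478 CPM in beta-catenin GOF, whose label implies an altered protein and not necessarily an altered RNA level. The counts are per whole gene, and whether reads fell in the floxed exons was not tested.

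Across the mutants, 290 genes were called, 2.31% of those tested: 58 were higher (0.461%) and 232 lower (1.84%) than in WT, by edgeR's quasi-likelihood test at a Benjamini-Hochberg adjusted p under 0.05. A further gene, Uchl1, passed the pooled test but moved up in 1 mutant and down in the others. At an unadjusted edgeR p under 0.05 stood 3234 of the 12577 tested genes, the background for the unadjusted counts given below. The genes that fell had a median log2 fold change of −1.31, the genes that rose one of 1.21, and all tested genes one of 0.04. At least 2-fold changes were seen for 194 of the lower and 45 of the higher genes, and in each mutant separately for 70 and 15. The medians of the lower genes were −1.60 in Hdac2 ECKO, −1.56 in the labelled Ezh2 ECKO libraries and −0.81 in beta-catenin GOF. Those of the higher genes were 1.44, 1.31 and 0.80. Beta-catenin GOF gave the smallest change for 199 of the 232 and 52 of the 58 genes, and for 7337 of all 12577 tested genes. Because the same 3 WT libraries stand in each of the mutant contrasts, these contrasts are not independent of each other.

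The calls were sensitive to single libraries. Each library was left out in turn (leave-one-out fits). Leaving out WT 2 ended every call (0 genes, with 2015 at an unadjusted p under 0.05), while 288 of the 289 called genes that could still be tested kept their direction. Without WT 1 there were 42 calls and without WT 3 there were 1096. Leaving out Hdac2 ECKO 1, 2 or 3 gave 66, 995 and 23 calls, leaving out labelled Ezh2 ECKO 1, 2 or 3 gave 52, 2071 and 104, and leaving out beta-catenin GOF 1, 2 or 3 gave 20, 113 and 75. In each of the 9 fits without a mutant library all 290 genes kept their direction. The genes were picked for sharing a sign in each mutant, and these fits reuse the same data. A kept direction was therefore largely fixed in advance and does not measure how stable the calls are. Scaling by library size alone gave 55 higher and 80 lower genes, so that 40.7% of calls were higher against 20% with TMM, and it moved the median of all genes from 0.04 to 0.15. Each gene described below passed with all 12 libraries unless values without a call are given, and none of those that passed did so without WT 2.

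**Figure D1:**
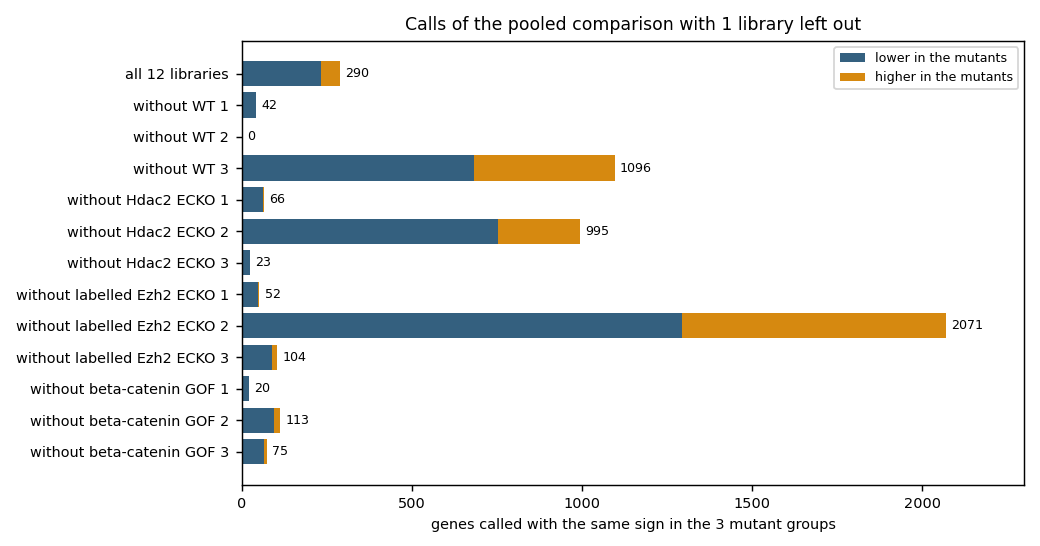
Number of genes called with the same sign in the 3 mutant groups (horizontal axis), split into lower (blue) and higher (orange), with all 12 libraries and with each library left out. The count was 290 with all libraries and ranged from 0 without WT 2 to 2071 without labelled Ezh2 ECKO 2.

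Only some of the calls rested on groups that did not overlap. For 490 tested genes (3.9%) the 9 mutant values lay entirely above or below the 3 WT values in CPM. Among the called genes this held for 124 (0.986% of tested genes), namely 41 of the 58 higher (0.326%) and 83 of the 232 lower genes (0.66%). Averaged over the 232 lower genes, WT 1, 2 and 3 stood 0.19, 0.38 and −0.57 from the WT mean in log2 CPM, and the 9 mutant libraries stood between −1.94 (Hdac2 ECKO 1) and −0.86 (beta-catenin GOF 2). WT 3 was thus the WT library nearest to the mutants, and it held the highest WT level of only 4 of the 232 genes, against 150 for WT 1 and 78 for WT 2.

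Interferon-gamma response genes fell in the mutants in the pooled comparison, with WT 2 far above the other libraries. Of 22 tested members of this list, 16 were called lower and none higher, each of the 22 had a negative change in each mutant, and the median log2 fold change was −2.19. Whatever the test, the sign was shared by the mutants for 61.8% of all tested genes, 32.9% positive and 29% negative. The members that fell are GTPases of the immunity-related and guanylate-binding families (Igtp, Irgm1, Irgm2, Iigp1, Tgtp1, Tgtp2, Ifi47, Gbp2, Gbp3, Gbp4 and Gbp5), the transcription factor gene Irf1, the feedback inhibitor gene Socs1, the chemokine gene Cxcl10 and the immunoproteasome genes Psmb8 and Psmb9. WT 2 decided the size of this change: without it the median was −0.53, 17 of the 22 were negative and 0 were called. Between WT and mutants 2 of the 22 did not overlap, against 3.9% of all tested genes. In mean log2 CPM relative to the WT mean, the list stood at −0.97, 2.00 and −1.03 in WT 1, 2 and 3. The mutant libraries ran from −2.05 (labelled Ezh2 ECKO 2) to −0.96 (Hdac2 ECKO 3), so only WT 2 stood above all of them. DESeq2 called 12 of the 22 lower and limma voom 3.

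Socs1, which encodes an inhibitor of JAK kinase signalling (chromosome 16, 10782240 to 10785536, minus strand, GRCm38), showed the change in every WT library. It was at 15.5, 16.8 and 6.91 CPM in WT 1, 2 and 3. In Hdac2 ECKO it was at 1.59, 1.44 and 0.97, in the labelled Ezh2 ECKO libraries at 0.91, 3.23 and 1.44, and in beta-catenin GOF at 2.05, 3.17 and 1.57 CPM. The lowest WT library therefore lay above the highest mutant library, and the log2 fold change was −2.88 (SE 0.38, edgeR adjusted p 0.0062). Without WT 2 it was −2.66 and no longer passed, and it passed in the other 11 leave-one-out fits.

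Irf1 (chromosome 11, 53770014 to 53778374, plus strand) was at 137, 228 and 50.9 CPM in WT and at 24.6 (lowest), 37.2 (median) and 55.6 CPM (highest) in the mutants. WT 3 fell within the mutant range. The log2 fold change was −1.89 (SE 0.29, edgeR adjusted p 0.012), and −1.33 without WT 2.

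The GTPase genes were set apart by WT 2. Igtp (chromosome 11, 58199556 to 58207591, plus strand) stood at 70.0, 1866 and 92.6 CPM in WT and at 35.5 (lowest), 49.5 (median) and 76.5 CPM (highest) in the mutants. WT 1 lay inside the mutant range and WT 2 far above every other library. Its log2 fold change of −3.70 (SE 0.60 and edgeR adjusted p 0.012) shrank to −0.64 without WT 2. Tgtp1 was at 442, 8519 and 518 CPM in WT and 179 (lowest), 278 (median) and 536 CPM (highest) in the mutants. Here both WT 1 and WT 3 lay inside the mutant range, and only WT 2 stood above it. The log2 fold change of Tgtp1 was −3.38 (SE 0.58 and edgeR adjusted p 0.018), and −0.66 without WT 2. Irgm1 was at 153, 1695 and 150 CPM in WT and 47.5 (lowest), 104 (median) and 136 CPM (highest) in the mutants. For Irgm1 even the lower WT libraries stayed above all 9 mutants, although the log2 fold change went from −2.79 (SE 0.50, edgeR adjusted p 0.019) to −0.66 without WT 2. Tgtp1 and Tgtp2, and the members of the Irgm and Gbp families, are close copies. On the same strand, Igtp overlaps Irgm2 and Tgtp1 overlaps Gm12185. How reads were split among all these genes is therefore uncertain.

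Type I interferon genes fell in part. Of 26 tested members, 8 were called lower (Zbp1, Irf7, Ifit3b, Ifit3, Oasl2, Isg15, Oas1a and Usp18) and none higher, 17 were negative in each mutant, and the median was −0.66, or −0.18 without WT 2. The RNA sensor genes Ifih1 and Ddx58 did not pass, at log2 fold changes of 0.11 and 0.15. Irf7, the transcription factor gene that amplifies the type I response (chromosome 7, 141262706 to 141266481, minus strand), had the smallest p of all tested genes. It was at 114, 184 and 47.0 CPM in WT, at 15.4, 19.8 and 14.8 CPM in Hdac2 ECKO, at 16.2, 28.9 and 15.1 CPM in the labelled Ezh2 ECKO libraries and at 30.0, 40.8 and 23.1 CPM in beta-catenin GOF. WT and mutants did not overlap. The log2 fold change was −2.39 (SE 0.30, edgeR adjusted p 0.0062), and −1.88 without WT 2. Irf7 overlaps Phrf1 on the opposite strand, and no strand setting of the counting is given in the sources used here.

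Ifit3, which encodes an antiviral RNA-binding protein (chromosome 19, 34583531 to 34588731, plus strand), was at 310, 870 and 226 CPM in WT and 75.1 (lowest), 128 (median) and 162 CPM (highest) in the mutants. The groups did not overlap, and the log2 fold change was −1.94 (SE 0.30, edgeR adjusted p 0.012), with −1.13 and no call without WT 2. Its near copy Ifit3b ran from 68.9 to 300.1 CPM in WT and from 29.2 to 55.6 CPM in the mutants, with a log2 fold change of −1.99, or −1.23 without WT 2. Oasl2, of the oligoadenylate synthetase family, was at 141, 229 and 66.8 CPM in WT and 35.2 (lowest), 52.7 (median) and 65.5 CPM (highest) in the mutants. WT 3 stood just above the highest mutant library, and the log2 fold change was −1.52 (SE 0.28, edgeR adjusted p 0.022).

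The start-site regions of 4 of these genes are shown because they hold matches to interferon-response motifs. Socs1, Igtp and Tgtp1 belong to the interferon-gamma list, which had the highest share of called members among the 25 lists (72.7%). Ifit3 belongs to the type I list (30.8%). Each is 250 bases before to 50 bases after a RefSeq start, on GRCm38.p6, printed 5′ to 3′ on the gene's strand. Capitals mark matches on either strand to GAAA followed after any 2 bases by GAAA, the core of the interferon-stimulated response element, and to TTCNNNGAA, the core of the STAT site. Socs1 is from chr16:10785487-10785786 (minus), Ifit3 from chr19:34583279-34583578 (plus), Igtp from chr11:58199306-58199605 (plus) and Tgtp1 from chr11:48992197-48992496 (minus).
Socs1: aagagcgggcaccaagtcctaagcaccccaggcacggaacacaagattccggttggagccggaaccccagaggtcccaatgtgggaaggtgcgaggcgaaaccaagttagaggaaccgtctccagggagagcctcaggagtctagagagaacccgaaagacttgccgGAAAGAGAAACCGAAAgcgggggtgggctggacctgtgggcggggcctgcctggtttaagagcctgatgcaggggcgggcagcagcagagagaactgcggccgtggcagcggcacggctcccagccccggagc
Ifit3: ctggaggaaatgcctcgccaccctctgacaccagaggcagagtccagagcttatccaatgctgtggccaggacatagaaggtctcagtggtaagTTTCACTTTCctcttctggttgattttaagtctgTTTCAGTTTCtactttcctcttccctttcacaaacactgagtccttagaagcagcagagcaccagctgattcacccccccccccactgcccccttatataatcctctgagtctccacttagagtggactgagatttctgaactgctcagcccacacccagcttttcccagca
Igtp: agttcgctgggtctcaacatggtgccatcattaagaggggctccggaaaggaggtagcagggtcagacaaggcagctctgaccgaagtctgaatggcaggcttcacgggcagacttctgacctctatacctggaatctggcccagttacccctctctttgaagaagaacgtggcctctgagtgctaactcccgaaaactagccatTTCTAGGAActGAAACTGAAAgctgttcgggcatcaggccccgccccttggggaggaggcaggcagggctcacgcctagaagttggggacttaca
Tgtp1: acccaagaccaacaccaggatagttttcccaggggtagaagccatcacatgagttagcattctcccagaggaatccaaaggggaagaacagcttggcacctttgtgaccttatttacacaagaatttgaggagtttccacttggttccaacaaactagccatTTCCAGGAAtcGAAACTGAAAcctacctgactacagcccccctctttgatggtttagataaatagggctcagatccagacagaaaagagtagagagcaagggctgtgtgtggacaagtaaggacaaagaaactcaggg
Socs1 holds a pair of overlapping matches to the response element core, Ifit3 a pair on the opposite strand, and Igtp and Tgtp1 each 1 match to each motif, with the STAT core upstream of the other. RefSeq promoters were found for 178 of the 232 lower genes (237 promoters), 44 of the 58 higher genes (58 promoters) and 9825 of the 12577 tested genes (12581 promoters). The response element core was present in 11.8% of the promoters of lower genes, 1.72% of those of higher genes and 3.16% of all. TTCNNNGAA was present in 11.4%, 3.45% and 6.92%. The TCF/LEF core CTTTGAT, of the factors that beta-catenin binds, was present in 2.95%, 0% (0 of 58) and 2.64%. These matches describe letters in the window and are not evidence of binding, and the Irf7 and Oasl2 windows hold neither interferon motif.

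**Figure D2:**
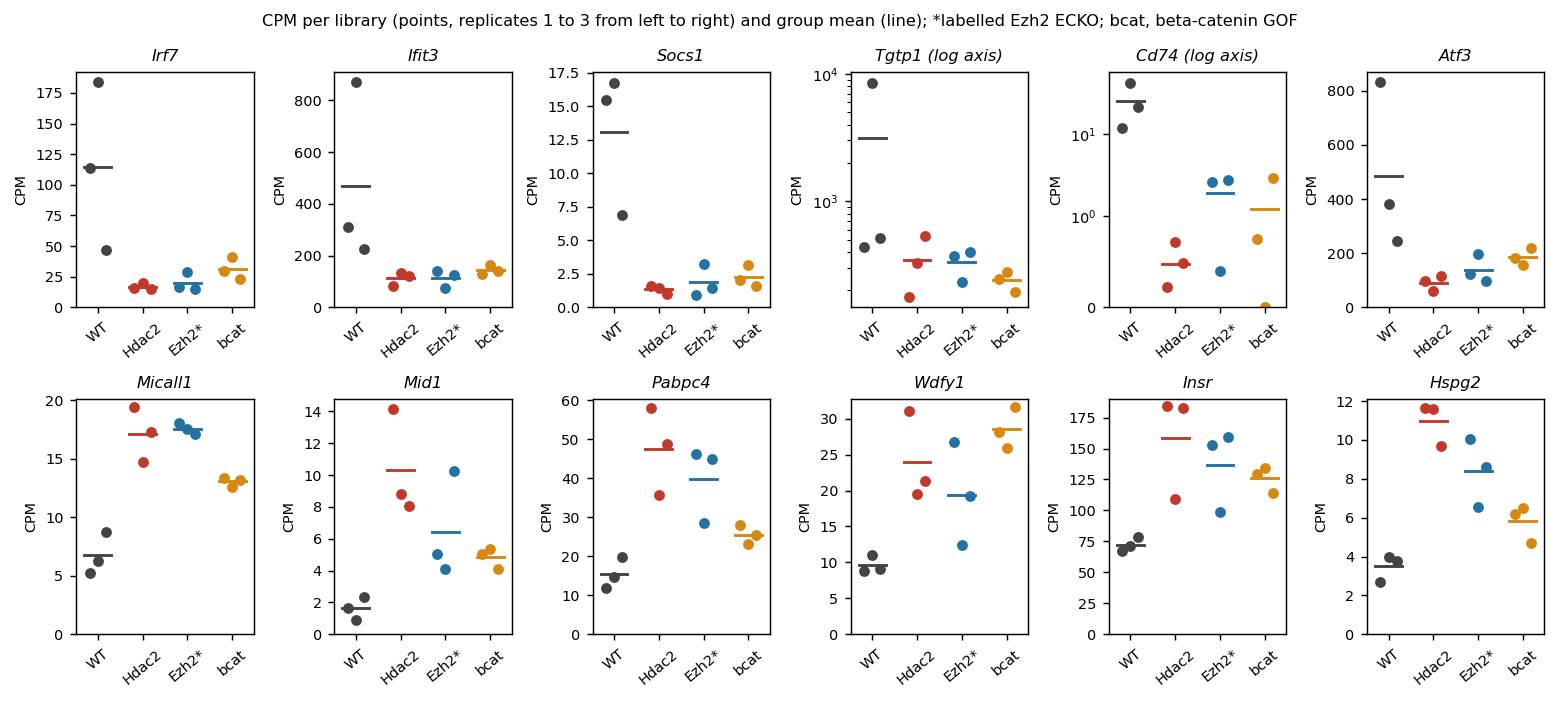
CPM per library for 12 genes (vertical axes; logarithmic for Tgtp1, linear below 1 and logarithmic above for Cd74), with points for replicates 1 to 3 and a line at the group mean; Ezh2* stands for the labelled Ezh2 ECKO libraries. The upper row holds genes that were lower in the mutants, with Tgtp1 at 8519 CPM in WT 2 against 442 and 518 in WT 1 and 3, and the lower row holds genes that were higher in the mutants, whose 9 mutant libraries all lie above the 3 WT libraries.

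MHC class II genes, which present antigen and are normally most active in professional antigen-presenting cells, fell at low levels. Of 6 tested members 3 were called lower and none higher, and the median was −3.52, or −2.45 without WT 2. Cd74, which encodes the invariant chain, was at 11.9, 42.2 and 21.6 CPM in WT, at 0.23, 0.72 and 0.49 CPM in Hdac2 ECKO, at 2.59, 0.39 and 2.80 CPM in the labelled Ezh2 ECKO libraries and at 0.75, 0 and 2.93 CPM in beta-catenin GOF. Its groups did not overlap, and the log2 fold change was −4.59 (SE 0.69, edgeR adjusted p 0.012). The chain genes H2-Aa and H2-Ab1 followed. H2-Aa was at 2.98, 14.6 and 10.2 CPM in WT and 0 (lowest), 0.11 (median) and 1.69 CPM (highest) in the mutants, a log2 fold change of −4.77 that became −7.16 without labelled Ezh2 ECKO 1. H2-Ab1 was at 3.05, 29.7 and 6.12 CPM in WT and 0 (lowest), 0.50 (median) and 2.50 CPM (highest) in the mutants, a log2 fold change of −4.31, or −2.81 without WT 2.

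Markers of microglia and leukocytes were measured beside these genes. Of 19 such markers 12 were tested, with a median log2 fold change of −1.86. Of these 12, 11 had a negative pooled change and 6 were at an unadjusted edgeR p under 0.05, against 3234 of all 12577 tested genes. DESeq2 called 0 of them, and limma voom called 5 lower and 0 higher. Cd53, a pan-leukocyte tetraspanin gene, was the 1 called by edgeR. It was at 2.08, 2.41 and 2.85 CPM in WT and at 0 counts in all 9 mutant libraries. This is 24.3-fold lower when each mutant library is set at a floor of 3 counts. The summed level of the 19 markers ran from 92.9 to 119 CPM in WT, 52.0 to 67.7 in Hdac2 ECKO, 55.9 to 126 in the labelled Ezh2 ECKO libraries and 59.6 to 91.4 in beta-catenin GOF. In beta-catenin GOF 9 of the 19 were at 0 in every library, among them Cx3cr1, Aif1, C1qb and Trem2. In mean log2 CPM relative to the WT mean, the tested markers stood at 0.52, 0.31 and −0.83 in WT 1, 2 and 3. Among the mutant libraries they ran from −3.08 (beta-catenin GOF 1) to 0.24 (labelled Ezh2 ECKO 2), and the next highest was −1.32 (Hdac2 ECKO 2). The MHC class II list stood at −1.25, 1.31 and −0.05 in WT 1, 2 and 3. In the mutant libraries it ran from −4.29 (beta-catenin GOF 2) to −1.31 (beta-catenin GOF 3), with labelled Ezh2 ECKO 2 at −3.31. The part of the markers in the fall of the interferon and MHC genes was not tested. In bulk RNA, fewer cells of a type and less RNA per cell cannot be told apart.

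Among MHC class I genes 2 of 10 tested were called lower, H2-D1 and H2-T22, and the median was −0.81, or −0.39 without WT 2. In mean log2 CPM relative to the WT mean, the list stood at −0.77, 0.75 and 0.02 in WT 1, 2 and 3. The mutant libraries ran from −1.06 (beta-catenin GOF 3) to −0.37 (Hdac2 ECKO 3), so WT 1 lay inside their range. The 10 genes summed to 7977 to 23147 CPM in WT, 7175 to 13165 in Hdac2 ECKO, 14246 to 17550 in labelled Ezh2 ECKO and 6944 to 12358 in beta-catenin GOF. H2-D1, a classical heavy-chain gene, was at 597, 1115 and 540 CPM in WT and 221 (lowest), 337 (median) and 521 CPM (highest) in the mutants. The groups did not overlap, and the log2 fold change was −1.11 (SE 0.23, edgeR adjusted p 0.031), or −0.71 without WT 2. H2-T22, a non-classical gene, was at 64.9, 115 and 61.6 CPM in WT and 33.8 (lowest), 37.8 (median) and 48.9 CPM (highest) in the mutants, with a log2 fold change of −1.02 (SE 0.20 and edgeR adjusted p 0.029), or −0.68 without WT 2. The light-chain gene B2m did not pass, at −0.49 (SE 0.30). H2 genes are close in sequence, so the split of reads among them is uncertain.

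Immediate early genes fell in part, and here WT 1 was the high library. Of 23 tested, 6 were called lower (Jund, Junb, Atf3, Zfp36, Ier2 and Ier3) and none higher. The median was −0.50, but it was 0.02 with 0 genes called without WT 1, and −0.16 with 5 called once the trend on gene length and GC content was removed. Atf3, a stress-induced factor gene (chromosome 1, 191170296 to 191218039, minus strand), was at 831, 380 and 246 CPM in WT and 59.1 (lowest), 122 (median) and 218 CPM (highest) in the mutants. The groups did not overlap, and the log2 fold change was −1.87 (SE 0.30, edgeR adjusted p 0.012), or −1.24 without WT 1. The AP-1 gene Junb was at 838, 363 and 134 CPM in WT and 87.7 (lowest), 112 (median) and 172 CPM (highest) in the mutants, so WT 3 fell among the mutants. Its log2 fold change was −1.91 (SE 0.34, edgeR adjusted p 0.019), or −1.07 without WT 1. Junb overlaps Prdx2 on the opposite strand. Zfp36, whose product promotes mRNA decay, was at 1353, 654 and 412 CPM in WT and 109 (lowest), 254 (median) and 390.2 CPM (highest) in the mutants, without overlap, at a log2 fold change of −1.70 (SE 0.31 and edgeR adjusted p 0.022) and −1.10 without WT 1. Jund was at 266, 121 and 35.0 CPM in WT and 22.5 to 63.6 CPM in the mutants, at −1.98 (SE 0.37) and −1.13 without WT 1. Fos, another AP-1 gene, did not pass, at −0.50 (SE 0.34).

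**Figure D3:**
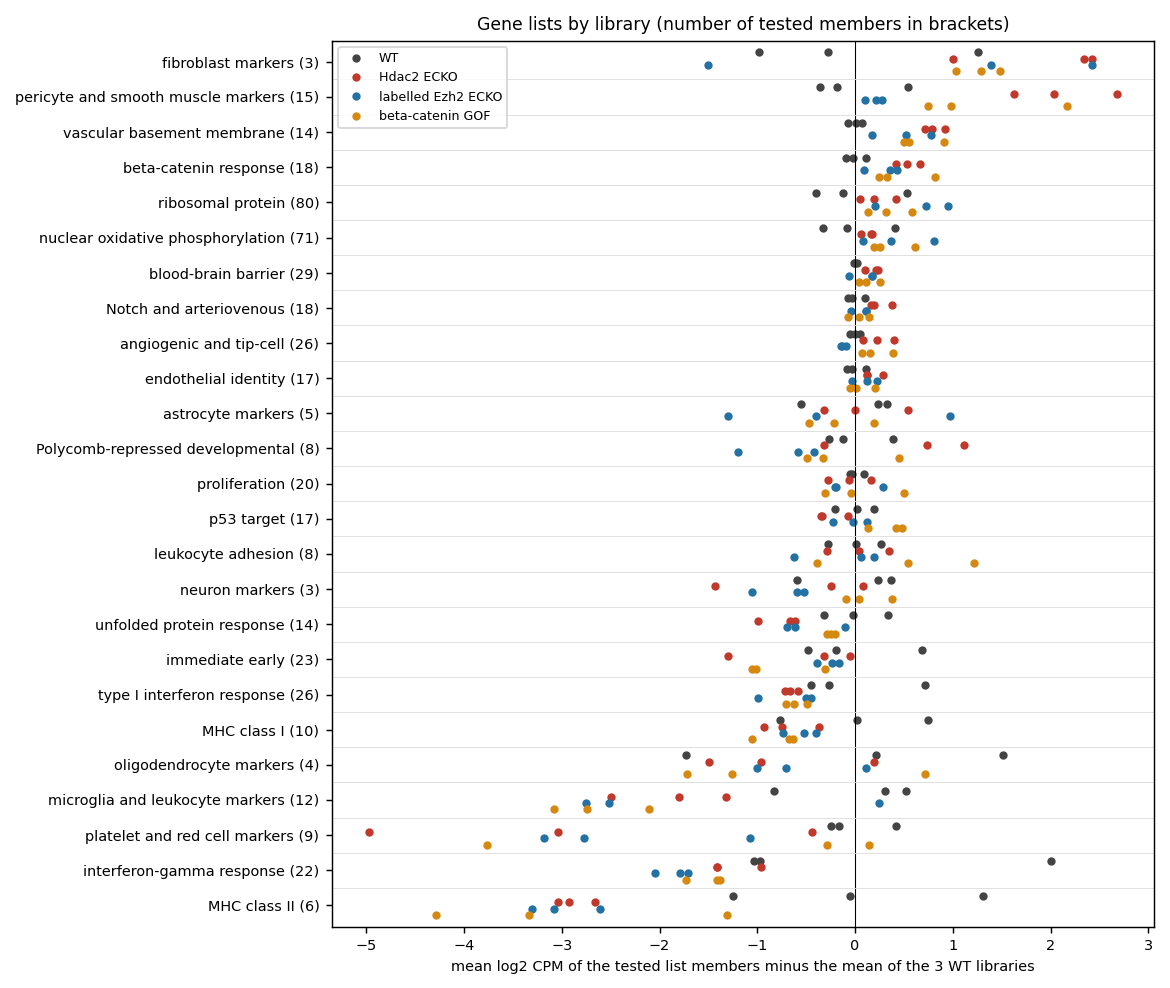
Mean log2 CPM of the tested members of each gene list in each library, minus the mean of the 3 WT libraries (horizontal axis), with lists ordered by their median pooled log2 fold change. The interferon-gamma list has 1 WT library (WT 2) far above the other libraries, and the vascular basement membrane list has every mutant library above the 3 WT libraries.

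Endothelial and barrier genes were mostly not called. Of 17 endothelial identity genes 1 was called, Egfl7, and the median was 0.18. Egfl7 encodes a secreted endothelial protein and was at 1122, 796 and 580 CPM in WT and 233 (lowest), 417 (median) and 710 CPM (highest) in the mutants. The ranges overlapped through beta-catenin GOF 2, and the log2 fold change was −1.09 (SE 0.25, edgeR adjusted p 0.041). Egfl7 overlaps Agpat2 on the opposite strand and Gm20532 on the same strand. Of 29 blood-brain barrier genes 1 rose and 1 fell, and the median was 0.27. DESeq2 called 4 higher and 3 lower, and limma voom 2 and 1. The summed level of the 29 genes went the other way from the median in Hdac2 ECKO, at 36385 to 43473 CPM against 62288 to 70923 CPM in WT, and it was 39992 to 67460 CPM in the labelled Ezh2 ECKO libraries and 60775 to 68751 CPM in beta-catenin GOF. Bsg, which encodes the immunoglobulin-family protein basigin, was the most abundant of them, at 34171 ± 5242 CPM in WT (SD, n = 3) and 18534 ± 10895 CPM in the mutants (SD, n = 9), and did not pass at a log2 fold change of −1.01 (SE 0.36). Marveld2, which encodes tricellulin, the protein that seals the corners where 3 cells meet (chromosome 13, 100595957 to 100616971, minus strand), was at 19.5, 25.3 and 24.0 CPM in WT, at 10.6, 9.66 and 9.40 CPM in Hdac2 ECKO, at 7.39, 6.81 and 10.1 CPM in the labelled Ezh2 ECKO libraries and at 6.38, 11.0 and 8.04 CPM in beta-catenin GOF. No library overlapped, and its log2 fold change of −1.38 (SE 0.22 and edgeR adjusted p 0.012) was −1.30 without WT 2.

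The insulin receptor gene Insr rose. It was at 67.4, 71.4 and 78.6 CPM in WT and 98.7 (lowest), 134 (median) and 184 CPM (highest) in the mutants, without overlap, at a log2 fold change of 0.95 (SE 0.22 and edgeR adjusted p 0.044). The call held in 3 of the 12 leave-one-out fits. The tight-junction gene Cldn5 was at 1491 ± 368 CPM in WT (SD, n = 3) and 1003 ± 618 CPM in the mutants (SD, n = 9) and did not pass, and its sign was not shared, with log2 fold changes of −1.10, −1.12 and 0.13 in Hdac2 ECKO, labelled Ezh2 ECKO and beta-catenin GOF. The glucose transporter gene Slc2a1 did not pass, at 0.32 (SE 0.19), nor did the lipid transporter gene Mfsd2a, at 0.53 (SE 0.23).

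Of the basement membrane genes 1 was called, and it rose. All 14 tested members had a pooled log2 fold change above 0, with a median of 0.62, and 10 were positive in each mutant. Between WT and mutants 5 of the 14 did not overlap, against 3.9% of all tested genes. Hspg2, which encodes the heparan sulphate proteoglycan perlecan (chromosome 4, 137468769 to 137570630, plus strand), was the 1 that passed. It was at 2.71, 3.99 and 3.77 CPM in WT, at 11.7, 11.6 and 9.67 CPM in Hdac2 ECKO, at 10.0, 6.53 and 8.59 CPM in the labelled Ezh2 ECKO libraries and at 6.21, 6.52 and 4.70 CPM in beta-catenin GOF. Its log2 fold change was 1.22 (SE 0.29, edgeR adjusted p 0.044), and the call held in 3 of the 12 leave-one-out fits. With the trend on gene length and GC content removed it was 0.88 (SE 0.24, edgeR adjusted p 0.055), and 0 of the 14 were called. Nid1, which encodes a linker of laminin and collagen, was at 17.1 ± 2.99 CPM in WT (SD, n = 3) and 32.6 ± 7.62 CPM in the mutants (SD, n = 9), at 0.93 (SE 0.26, edgeR adjusted p 0.063). DESeq2 called 7 of the 14 higher and limma voom 0. The collagen gene Col4a1 was at 0.60 (SE 0.19, edgeR adjusted p 0.088). Pericyte and smooth muscle markers, which include cells that also make this matrix, had a pooled median of 1.40. By group it was 2.31 in Hdac2 ECKO, 0.10 in the labelled Ezh2 ECKO libraries and 1.39 in beta-catenin GOF. Of the 15 tested markers edgeR called 0, DESeq2 2 and limma voom 0, and 7 were at an unadjusted edgeR p under 0.05. The part of these markers in the basement membrane values was not tested.

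Genes of the beta-catenin response were not called in the pool. By edgeR 0 of 18 passed, and the median was 0.60. At an unadjusted p under 0.05 were 8 of the 18, against 3234 of all 12577 tested genes. DESeq2 called 4 higher and 1 lower, and limma voom 0. The negative-feedback gene Axin2 was at 0.79 (SE 0.27, edgeR adjusted p 0.099) and Apcdd1, which encodes a membrane inhibitor of the pathway, at 0.74 (SE 0.23, edgeR adjusted p 0.079). The transcription factor gene Lef1 was at 0.58 (SE 0.29), with 1.06 in Hdac2 ECKO, 0.61 in the labelled Ezh2 ECKO libraries and 0.06 in beta-catenin GOF. Of 26 tested angiogenic and tip-cell genes 1 fell and none rose, with a median of 0.19. The called gene was Cd34, a sialomucin gene, at 1392, 1005 and 511 CPM in WT and 349 (lowest), 434 (median) and 632 CPM (highest) in the mutants. WT 3 fell inside the mutant range, and the log2 fold change of −1.05 (SE 0.24 and edgeR adjusted p 0.040) was −0.70 without WT 1.

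Alpl, the alkaline phosphatase gene of brain capillaries, was the 1 called of 18 Notch and arteriovenous genes. It was at 172, 127 and 66.2 CPM in WT and 32.2 (lowest), 45.5 (median) and 70.0 CPM (highest) in the mutants, with WT 3 inside the mutant range, at a log2 fold change of −1.26 (SE 0.27 and edgeR adjusted p 0.031). F11r, which encodes a junctional adhesion molecule, was the 1 called of 8 leukocyte adhesion genes, at −0.83 (SE 0.20, edgeR adjusted p 0.046). The cyclin-dependent kinase inhibitor gene Cdkn1a was the 1 called of 17 p53 target genes, with log2 fold changes of −2.18 in Hdac2 ECKO, −0.51 in the labelled Ezh2 ECKO libraries and −0.36 in beta-catenin GOF. The disulfide isomerase gene Pdia6 was the 1 called of 14 unfolded protein response genes, at −1.15 (SE 0.27, edgeR adjusted p 0.044). Of 20 proliferation genes 0 passed by edgeR and 0 were at an unadjusted p under 0.05, with a median of 0.08. Of 38 developmental genes under Polycomb repression 8 reached the count minimum, and 0 passed by edgeR, with 1 at an unadjusted p under 0.05 and a median of 0.10. DESeq2 and limma voom called 0 in either list. The proliferation median turned to −0.01 without WT 1 or without WT 2, and its sign changed in 7 of 28 settings. The Polycomb median ran from −0.41 to 0.89 over the leave-one-out fits, with −0.07 without WT 2. The sign of the Polycomb median changed in 10 of 28 settings, so the direction of neither list is determined.

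Further genes were named for the smallest p or the largest change without overlap between the groups. Micall1, which acts in endosomal recycling (chromosome 15, 79108898 to 79136900, plus strand), was at 5.24, 6.27 and 8.76 CPM in WT and at 12.6 (lowest), 17.1 (median) and 19.4 CPM (highest) in the mutants. The groups did not overlap, and the log2 fold change was 1.22 (SE 0.24, edgeR adjusted p 0.029). Mid1, an X-linked ubiquitin ligase gene, was at 1.63, 0.89 and 2.35 CPM in WT and 4.09 (lowest), 5.33 (median) and 14.1 CPM (highest) in the mutants, at 2.08 (SE 0.42, edgeR adjusted p 0.029). These 2 genes passed in 7 of the 12 leave-one-out fits.

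Pabpc4, which encodes a poly(A)-binding protein, was at 11.8, 14.7 and 19.8 CPM in WT and 23.03 (lowest), 35.6 (median) and 58.0 CPM (highest) in the mutants. Eif2ak4, the kinase gene that senses amino acid shortage, was at 10.5, 16.4 and 21.4 CPM in WT and 28.3 (lowest), 34.1 (median) and 61.2 CPM (highest) in the mutants. Neither overlapped, at log2 fold changes of 1.24 (SE 0.25) and 1.29 (SE 0.26, edgeR adjusted p 0.029 for each). Wdfy1 was at 8.78, 11.0 and 9.08 CPM in WT and 12.4 (lowest), 25.9 (median) and 31.6 CPM (highest) in the mutants, and its highest group mean was in beta-catenin GOF. Its log2 fold change was 1.30 (SE 0.27, edgeR adjusted p 0.030). Wdfy1 overlaps Mrpl44. These 3 genes passed in 5 of the 12 leave-one-out fits.

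Further rises without overlap were those of the zinc-finger gene Zfp12, Stox2 (1.26), the phospholipase D gene Pld1 (1.52), the cGMP-dependent protein kinase gene Prkg1 (1.58), Ttf2 (2.14) and the Arf-like GTPase gene Arl5c (2.01). They passed in 3 to 6 of the 12 leave-one-out fits. Ribosomal protein genes and nuclear genes of oxidative phosphorylation had medians of 0.44 over 80 and 0.42 over 71 genes. By edgeR 0 passed in either list, with 31 and 35 at an unadjusted p under 0.05, against 3234 of all 12577 tested genes. DESeq2 called 7 ribosomal protein genes higher and 0 lower, and 12 oxidative phosphorylation genes higher and 3 lower. Limma voom called 1 gene of each list higher and 0 lower.

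Among the falls outside the interferon and immediate early lists, Cd24a, which encodes a small glycoprotein of the cell surface, was at 67.2, 50.5 and 47.8 CPM in WT and 12.4 (lowest), 19.0 (median) and 29.5 CPM (highest) in the mutants, at a log2 fold change of −1.51 (SE 0.23 and edgeR adjusted p 0.012). Colca2 was at 48.6, 47.8 and 44.7 CPM in WT and 10.8 (lowest), 14.8 (median) and 28.0 CPM (highest) in the mutants, at −1.53 (SE 0.24, edgeR adjusted p 0.012). The WT libraries of Colca2 lay close together and apart from every mutant. Both genes passed in 11 of the 12 leave-one-out fits and changed little without WT 2, to −1.57 and −1.51. Pde8b, a cAMP phosphodiesterase gene, was at 4.89, 5.89 and 20.1 CPM in WT and 0.58 (lowest), 1.54 (median) and 3.26 CPM (highest) in the mutants. WT 3 was its high library, and the log2 fold change of −2.74 (SE 0.46 and edgeR adjusted p 0.017) was −1.81 without WT 3.

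**Figure D4:**
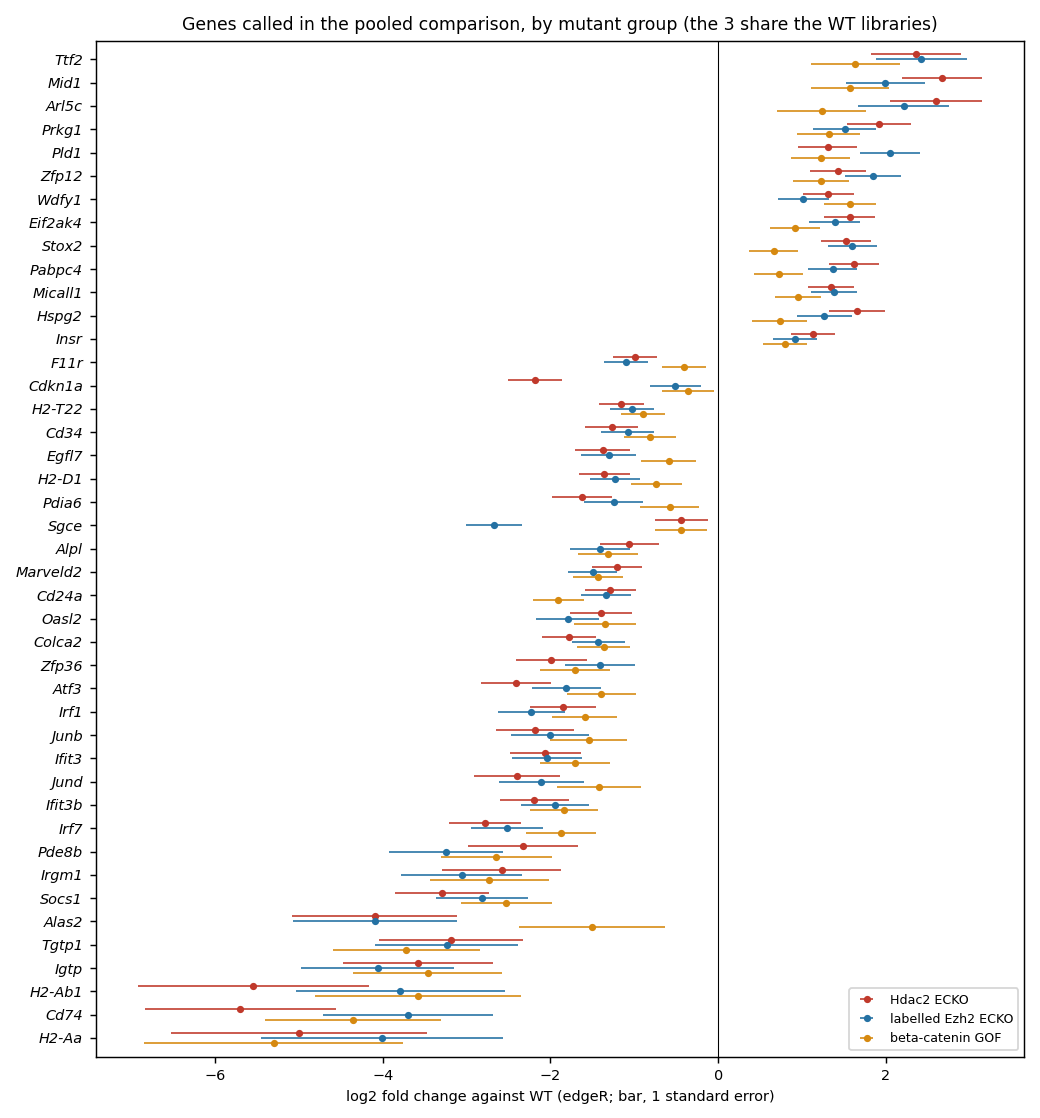
Log2 fold change against WT in each mutant group (horizontal axis; bars, 1 standard error from edgeR) for called genes described in the text. The 3 groups share the WT libraries, and for most genes the beta-catenin GOF point lies nearest to 0, with exceptions such as Wdfy1 (1.57) and Cd24a (−1.91).

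Among red cell and platelet markers libraries of the same group differed widely. Alas2, the heme synthesis gene of red cell precursors, was the 1 called of 9 platelet and red cell markers tested, at 14.2, 21.2 and 7.34 CPM in WT and 0.37 (lowest), 0.78 (median) and 13.1 CPM (highest) in the mutants. Beta-catenin GOF 3 was the high mutant library and lay above WT 3. The log2 fold change was −3.23 (SE 0.64, edgeR adjusted p 0.029). The 10 markers of this list, haemoglobin genes included, summed to 36149 to 61419 CPM in WT, 406 to 21723 in Hdac2 ECKO, 2533 to 6715 in the labelled Ezh2 ECKO libraries and 529 to 35414 in beta-catenin GOF. Their part in the other results was not tested. Of the other marker lists 0 genes were called by edgeR, and 3 were at an unadjusted p under 0.05 (DESeq2 called 1 astrocyte and 1 oligodendrocyte marker): 3 neuron, 4 oligodendrocyte, 5 astrocyte and 3 fibroblast markers were tested, with medians of −0.35, −1.19, 0.17 and 2.27.

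Gene length moved with the pooled change. Tested genes were divided by length into 5 groups of equal size. In the shortest the median log2 fold change was −0.26 and 72 genes were called lower against 4 higher. In the longest it was 0.42, with 7 lower and 23 higher. The called lower genes had a median length of 3017 bases, the higher genes 6699 bases and all tested genes 4429 bases. When the trend on length and GC content was removed within each library, 241 of the 286 called genes that could still be tested were called, all 286 kept their direction, and the total was 516 (153 higher, 363 lower). Interferon-gamma genes then had a median of −2.16 with 18 called, immediate early genes −0.16 with 5 and basement membrane genes 0.47 with 0, and 10 ribosomal protein and 15 oxidative phosphorylation genes were called higher.

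**Figure D5:**
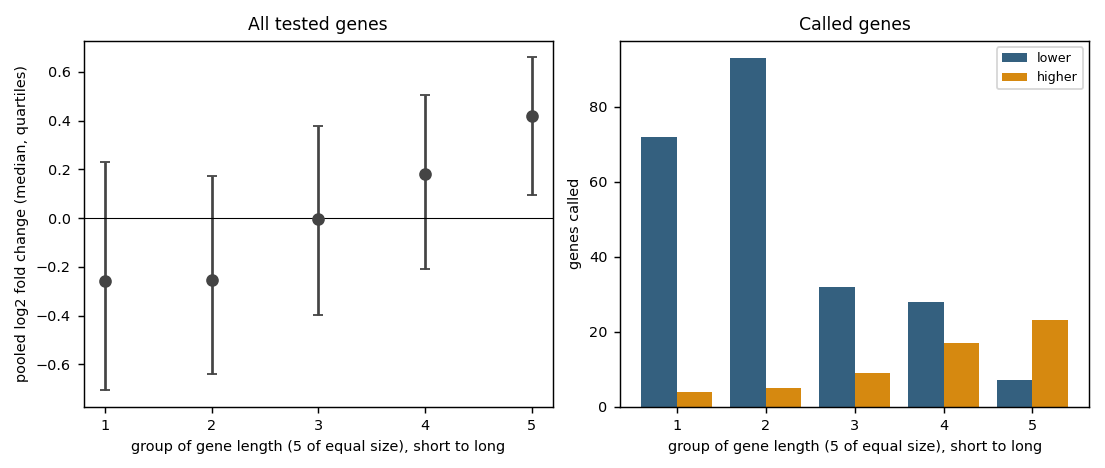
Left: median and quartiles of the pooled log2 fold change (vertical axis) in 5 groups of genes of equal size, from short to long (horizontal axis). Right: genes called lower (blue) and higher (orange) in the same groups. The median rises from −0.26 in the shortest to 0.42 in the longest group, and called lower genes drop from 72 to 7.

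Most called genes did not differ among the mutants by the test that compares them with each other, although a miss does not show that they were equal. That test passed for 13 of 12577 genes (0.103%), 2 of them among the 290 calls. Sgce, which encodes a sarcoglycan, was at 31.4, 28.0 and 25.1 CPM in WT, at 19.6, 21.4 and 21.4 CPM in Hdac2 ECKO, at 2.43, 4.72 and 6.11 CPM in the labelled Ezh2 ECKO libraries and at 24.0, 15.7 and 22.4 CPM in beta-catenin GOF. Its pooled log2 fold change of −1.19 (SE 0.24 and edgeR adjusted p 0.029) was thus made mostly by the labelled Ezh2 ECKO libraries, at −2.67 against −0.44 and −0.45.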

How the data were processed

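Count data were taken from 1 table deposited by the authors. Per the submitters' processing notes, FastQC, cutadapt, STAR, featureCounts and DESeq2 were used with the mm10 build; versions and the strand setting are not given in the sources used here. The table is called normalized, but its values are whole numbers with unequal totals, and 79.5% to 84.0% of values from 10 to 50 are even, a pattern that arises when each read of a pair is counted. They were analysed as unscaled counts, as deposited. Gene positions matched GENCODE M21 (GRCm38) for 98.3% of genes and are counted from 1. Symbols that a spreadsheet had turned into dates stood on 4 rows, kept apart by position.

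The quasi-likelihood test of edgeR 4.0.16 (R 4.3.3) used TMM scaling, a term per group, no block and genes averaging 10 counts or more. The contrast averaged the 3 mutants with equal weight, with Benjamini-Hochberg adjustment over all tested genes at 0.05. Standard errors derive from the F statistic, and a second test compared the mutants with each other. Levels are CPM of the TMM-scaled total. The smallest level counted as measurable (3 counts) was 0.0792 to 0.118 CPM per library. Reads carry no molecular identifiers, so this covers at most counting error. Where each read of a pair is counted, 3 counts come from fewer fragments, so the floor may be too low. With the 2 called genes at or under that floor in a whole arm (Cd53 and Doc2g) set at the floor there, the medians of called genes stayed −1.31 and 1.21. Counts of every replicate pair differed by more than sampling noise (the lowest chi-square divided by its degrees of freedom was 67.4).

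On simulated counts of 12428 genes, of which 192 were changed, 22.1% of 2-fold and 68.2% of 4-fold changes were recovered, and 6.74% of calls were unchanged genes. These shares describe the simulated counts. With 1 real library left out the calls ran from 0 to 2071, so the shares may not hold for the 290 calls. The comparison and the 25 gene lists were chosen with earlier results of these data known. Genes were named by rule: the targeted genes; per direction, among called genes without overlap and leaving out predicted symbols (1 higher and 12 lower calls), the 8 smallest p and the 6 largest changes with at least 5 CPM; up to 4 called members per list; and, of genes past the pooled threshold whatever their sign, the 2 with the smallest p among the mutants (Uchl1 and Sgce). List members beyond these were named after their values were seen. Alternatives were other scalings, filters, DESeq2 1.42.0, limma 3.58.1 (voom), a replicate block, a length and GC correction and the removal of groups or libraries.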

Additional observations from a re-analysis of the deposited data

Results flagged for a closer look

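The test that compares the mutants with each other passed for 13 genes, and 3 of them also passed the pooled test (edgeR). Uchl1, which encodes a neuronal and endocrine ubiquitin hydrolase, differed among the mutants at an edgeR adjusted p of 0.0081. It was at 12.0, 10.6 and 17.4 CPM in WT, at 3.11, 7.31 and 4.92 CPM in Hdac2 ECKO, at 2.01, 2.68 and 1.98 CPM in the labelled Ezh2 ECKO libraries and at 24.9, 12.6 and 19.6 CPM in beta-catenin GOF, which overlapped WT. Sgce differed at an edgeR adjusted p of 0.021 and was lowest in the labelled Ezh2 ECKO libraries. Npw, the neuropeptide W gene, differed at an edgeR adjusted p of 0.026: its mean level was 0.12 CPM in WT, 9.78 CPM in Hdac2 ECKO, 9.68 CPM in the labelled Ezh2 ECKO libraries and 0.14 CPM in beta-catenin GOF. Its pooled call as a rise (log2 fold change 4.32) therefore rests on 2 of the 3 mutants, since the change in beta-catenin GOF was 0.27.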

How the results depend on the processing

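The 290 pooled calls (58 higher, 232 lower) and the 13 genes that differed among the mutants changed in number with most settings. The direction of the called genes that could be tested held in every setting except for 1 of 289 genes without WT 2, and no named gene reversed. Because calls were picked for a shared sign in these same data, that was largely fixed in advance and is no measure of stability. Scaling by library size alone gave 135 calls (80 lower) and the upper quartile 182 (133 lower). Without a filter there were 1473 calls (431 higher, 1042 lower) and 1050 genes among the mutants, and a mean count of at least 50 gave 88 higher genes. DESeq2 gave 1359 (553, 806) and 247 among the mutants, and limma voom gave 20 among the mutants. Voom with sample quality weights gave 3974 (1848, 2126) and 3092 among the mutants. Treating the mutants as 1 group of 9 gave 26 (0 higher, 26 lower). Without the Hdac2 ECKO group there were 0 calls (0 higher, 0 lower; smallest edgeR adjusted p 0.060, 1873 genes at an unadjusted p under 0.05). Without the labelled Ezh2 ECKO libraries there were 152 (22, 130) with 192 among the mutants, and without beta-catenin GOF 755 (224, 531) with 4. Removing the length and GC trend gave 516 (153, 363). Chosen after seeing the data, leaving out Hdac2 ECKO 1 and 3 and labelled Ezh2 ECKO 1 and 3, which assumes that the lone library left in each varies like the other groups, gave 1 call (1 higher, Gm10260, and 0 lower) and 6 among the mutants. Leaving out 1 library at a time gave 0 to 2071 calls, 0 to 776 higher, 0 to 1295 lower and 4 to 753 among the mutants. The cause of these shifts was not tested.

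With the replicate number as a block there were 724 calls (154, 570) and 32 among the mutants, and together with the length and GC correction, chosen after seeing the data, 611 (157, 454). Over 18 pairs of libraries with the same replicate number the mean correlation of deviations was 0.02, from −0.14 to 0.27. The 4 over 0.1 were all between Hdac2 ECKO and another mutant group. Libraries with different numbers were not compared, so whether the numbers pair libraries is not settled. With 3 WT libraries, changes near 2-fold were recovered in 22.1% of simulated cases, so a gene without a call is not shown to be unchanged.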
